A study of Mus musculus with 2 samples.

Results

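The genes described here are the 10 that carry the recognition of lipopolysaccharide (LPS) by Toll-like receptor 4 (TLR4) and its first signalling steps: Tlr4, Cd14, Ly96, Tlr2, Myd88, Tirap, Ticam1, Irak3, Irak4 and Traf6. They were taken as a named list, all 10 are among the 19537 genes of the deposited matrices, and the question was whether microglia without PARK7/DJ-1 lack any part of this machinery after LPS. The data are single-cell Drop-seq counts of unique molecular identifiers (UMIs, each standing for 1 captured transcript) from CD11b+CD45int brain cells sorted by flow cytometry. There was 1 library of PARK7/DJ-1 knock-out mice (here KO) and 1 of their wildtype littermates (wildtype), both taken 24 h after a single intraperitoneal injection of LPS, at an age of 3 to 4 months. Each library pooled 2 mice, 1 female and 1 male, the KO is a gene-trap allele of Park7 present in every cell of the body, and the line had been backcrossed to C57BL/6NCrl.

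A barcode was counted as a cell when it held at least 500 UMIs and at least 100 genes, which left 320 cells with 381305 UMIs in KO and 1427 cells with 1989011 UMIs in wildtype. The median cell held 963.5 UMIs in KO and 1065 in wildtype, and no barcode was a cell in both libraries. The list of 8 microglia markers, among them P2ry12, Tmem119 and Csf1r, summed to 26388 counts per 1000000 UMIs (CPM) in KO and to 19564 CPM in wildtype, and 316 of 320 and 1416 of 1427 cells held 3 or more of these UMIs. The 8 genes did not lie in 1 direction: P2ry12 was at 3837 CPM in KO and 406 CPM in wildtype, while C1qa was at 2840 and 5298 CPM and Itgam at 1406 and 1876 CPM. With 1 library for each genotype there is no replicate, so no test between genotypes was made, and genotype cannot be told apart from library. Intervals are exact 95% intervals and cover counting error only. For a count of 0, limits and bounds take 3 counts as the floor, which is tighter than the exact upper limit (for 0 of 320 cells, 0.9375% against 1.15%). No library from mice without LPS was analysed here.

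LPS, a glycolipid of the outer membrane of Gram-negative bacteria, is passed to CD14 at the cell surface and from there to MD-2, the product of Ly96, which is bound to TLR4. The engaged receptor signals through the adaptor TIRAP, which brings in MyD88, IRAK4 and the ubiquitin ligase TRAF6 and leads to NF-kappaB and cytokine transcripts. After uptake into endosomes it signals through TRIF, the product of Ticam1, towards type I interferon. IRAK3, also called IRAK-M, restrains the MyD88 branch. TLR2 recognises bacterial lipoproteins and shares TIRAP and MyD88 with TLR4. Microglia, the resident macrophages of the brain, are known to carry this receptor system, and Cd14, Tlr2 and Irak3 are known to be induced in macrophages by LPS itself.

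Promoter sequence is shown for Tlr2 and Irak3, the members with the lowest ratios in the levels described below, and for Irak4, whose level differed by less than its counting error. The sequences are from RefSeq on GRCm38.p6, 250 bases before to 50 bases after the start of transcription, written 5′ to 3′ on the strand of the gene. Capitals mark every match, on either strand, to GGGNNNNNCC, a loose form of the site bound by NF-kappaB, the factor that TLR4 signalling activates; overlapping matches were merged.
Tlr2, chr3:83841559-83841858, minus strand: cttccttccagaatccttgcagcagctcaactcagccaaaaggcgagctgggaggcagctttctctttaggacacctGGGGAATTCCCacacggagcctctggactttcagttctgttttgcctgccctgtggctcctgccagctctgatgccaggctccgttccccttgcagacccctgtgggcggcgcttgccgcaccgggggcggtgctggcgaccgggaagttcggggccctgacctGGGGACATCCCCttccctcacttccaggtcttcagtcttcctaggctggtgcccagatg
Irak3, chr10:120201548-120201847, minus strand: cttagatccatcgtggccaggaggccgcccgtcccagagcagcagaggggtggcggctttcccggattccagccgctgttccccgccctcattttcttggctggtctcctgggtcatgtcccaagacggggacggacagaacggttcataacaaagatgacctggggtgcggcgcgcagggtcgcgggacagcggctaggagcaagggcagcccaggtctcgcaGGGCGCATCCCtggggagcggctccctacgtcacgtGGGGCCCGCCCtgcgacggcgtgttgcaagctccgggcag
Irak4, chr15:94543410-94543709, plus strand: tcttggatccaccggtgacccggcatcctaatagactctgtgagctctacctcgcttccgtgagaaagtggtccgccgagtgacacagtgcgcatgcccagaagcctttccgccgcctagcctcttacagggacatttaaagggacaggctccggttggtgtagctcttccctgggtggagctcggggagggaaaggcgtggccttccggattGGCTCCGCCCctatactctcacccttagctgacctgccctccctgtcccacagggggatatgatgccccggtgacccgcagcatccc

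The Tlr2 promoter held matches in 2 places, whose first bases lie 173 and 9 bases before the start site, and the Irak3 promoter in 2 places, the first 26 bases before the start site and the other from 10 bases after it. The Irak4 promoter held 1 match, 37 bases before the start. Among the other members in the table, Traf6, Ticam1 and Tirap held matches and Myd88 held none, and the second listed start of Irak3 held none. The motif is loose, since 51.0% of the 32544 mouse promoters of the same length held it, so its presence is a description of the sequence only. Tlr4 and Ly96 had no entry, and the Cd14 promoter was not analysed here.

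Park7, the targeted gene, had 1 UMI in all KO cells (2.62 CPM, 0.0664 to 14.6) and 323 UMIs in wildtype cells (162 CPM, 145 to 181), a ratio of 0.0161 (0.000408 to 0.0906). The transcript thus went with the label of each library.

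Of the 10 sensing genes, 9 had UMIs in KO cells and 1, Irak3, had 0. The receptor Tlr4, its partner Ly96, the kinase Irak4, the ligase Traf6 and the adaptor Ticam1 stood within 2-fold of wildtype, with ratio intervals that all held 1. Cd14, Tlr2, Myd88, Tirap and Irak3 were over 2-fold lower in KO, with ratio intervals that all lay below 1, and none of the 10 was over 2-fold higher. So 5 of 10 members were over 2-fold lower where 15.3% of the 9085 genes that reached 20 UMIs in the libraries together were, and 0 of 10 were over 2-fold higher where 13.5% of those genes were. All 10 members passed that minimum. Their median log2 ratio of KO over wildtype was -0.74, with the median of all 9085 genes at 0.03 and their SD at 1.17.

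**Figure D1:**
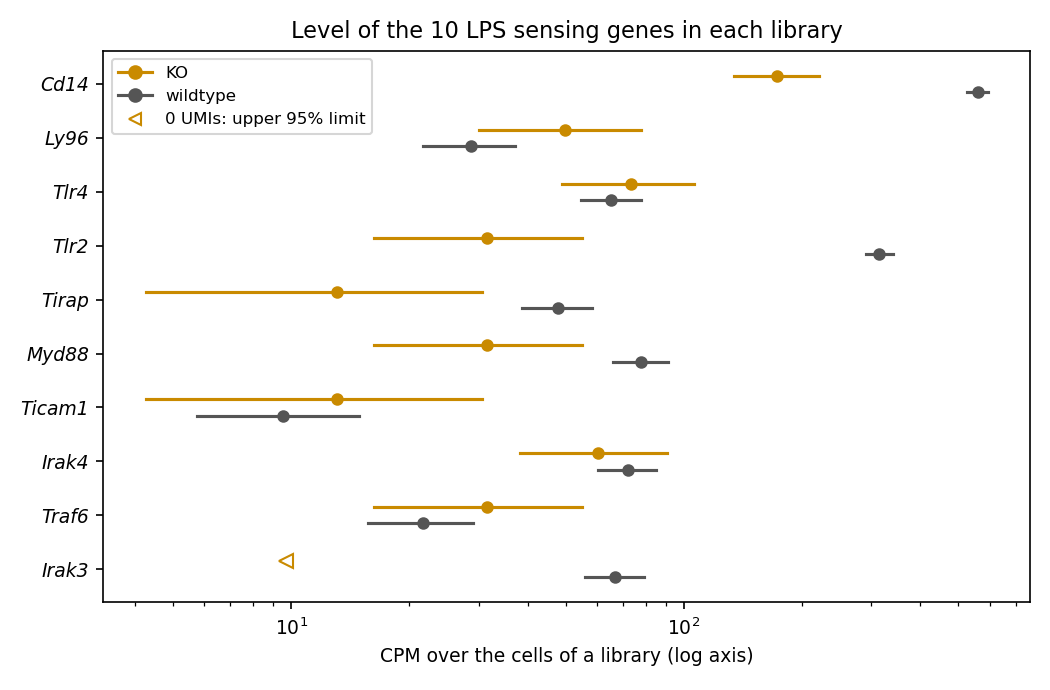
Level of each of the 10 genes in the 320 KO cells and the 1427 wildtype cells, as CPM summed over cells on a log axis; points are the libraries and lines the exact 95% Poisson intervals, and the open triangle is the upper limit of a gene with 0 UMIs. The intervals of the libraries are well apart for Cd14, Tlr2 and Irak3 and overlap for Tlr4, Ly96, Ticam1, Irak4 and Traf6.

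Among the surface receptors, Tlr4 itself, the signal-transducing chain, gave 28 UMIs in KO (73.4 CPM, 48.8 to 106) and 130 UMIs in wildtype (65.4 CPM, 54.6 to 77.6). The ratio was 1.12 (0.719 to 1.70), so a shortfall of Tlr4 transcript was not detectable in the summed counts. These counts include ambient RNA, which held Tlr4 at 101 CPM in KO and 31.7 CPM in wildtype, so the ratio does not bound the transcript of the cells themselves. Ly96, the LPS-binding partner, gave 19 UMIs in KO (49.8 CPM, 30.0 to 77.8) and 57 in wildtype (28.7 CPM, 21.7 to 37.1), a ratio of 1.74 (0.977 to 2.97). The point estimates of both parts of the receptor complex were at or above wildtype, by less than the counting error in each case.

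Cd14, which hands LPS to that complex, gave 66 UMIs in KO (173 CPM, 134 to 220) and 1113 UMIs in wildtype (560 CPM, 527 to 593). At the level of wildtype, 213 UMIs would have been counted in the KO cells. The ratio was 0.309 (0.238 to 0.397). Tlr2, the lipoprotein receptor, had the lowest ratio of the 9 members with UMIs in both libraries. It gave 12 UMIs in KO (31.5 CPM, 16.3 to 55.0) and 625 in wildtype (314 CPM, 290 to 340), 9.98-fold lower in KO, with a ratio of 0.10 (0.0515 to 0.176).

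Of the adaptors, Tirap, which docks MyD88 at the membrane, gave 5 UMIs in KO (13.1 CPM, 4.26 to 30.6) and 95 in wildtype (47.8 CPM, 38.6 to 58.4), a ratio of 0.275 (0.0871 to 0.663). Myd88 gave 12 UMIs in KO (31.5 CPM, 16.3 to 55.0) and 155 in wildtype (77.9 CPM, 66.1 to 91.2), a ratio of 0.404 (0.204 to 0.726). Over all barcodes it was no longer over 2-fold lower, at a ratio of 0.562 (0.359 to 0.847). In cells of 500 to 749 UMIs the ratio intervals of both adaptors held 1, on 2 UMIs in KO for Myd88 and 1 for Tirap. Over all cells both adaptors of the cell-surface branch were lower, but each KO value rests on 12 or fewer UMIs. Ticam1, the adaptor of the endosomal branch, was scarce in both libraries, with 5 UMIs in KO (13.1 CPM, 4.26 to 30.6) and 19 in wildtype (9.55 CPM, 5.75 to 14.9). Its ratio of 1.37 (0.401 to 3.80) leaves room for a change of over 2-fold in either direction.

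Downstream of the adaptors, Irak4, the kinase that starts the cascade, gave 23 UMIs in KO (60.3 CPM, 38.2 to 90.5) and 143 in wildtype (71.9 CPM, 60.6 to 84.7), a ratio of 0.839 (0.515 to 1.31). Traf6 gave 12 UMIs in KO (31.5 CPM, 16.3 to 55.0) and 43 in wildtype (21.6 CPM, 15.6 to 29.1), a ratio of 1.46 (0.699 to 2.81). Neither differed between libraries beyond counting error. The 3′ end of Irak4, where Drop-seq reads fall, lies under Twf1 on the opposite strand, and whether reads were assigned by strand is not given in the sources used here, so the Irak4 level is uncertain.

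Irak3, the inhibitor, gave 0 UMIs in the 320 KO cells, which at the floor of 3 counts allows up to 0.9375% of cells with a UMI and a level of up to 7.87 CPM (exact upper limit 9.67 CPM). Wildtype cells held 133 UMIs (66.9 CPM, 56.0 to 79.2), a level at which 25.5 UMIs would have been counted in KO. Irak3 was therefore at least 8.50-fold lower in KO, taking 3 counts over the library as the floor, or 6.82-fold by the exact upper limit of the ratio. The gene was not absent from the KO library, since 3 Irak3 UMIs lay on barcodes below the cell limits (9.89 CPM of those barcodes, 2.04 to 28.9) against 63 in wildtype (58.6 CPM, 45.0 to 75.0). Over all barcodes together Irak3 had 3 UMIs in KO and 196 in wildtype, a ratio of 0.0685 (0.0140 to 0.203).

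**Figure D2:**
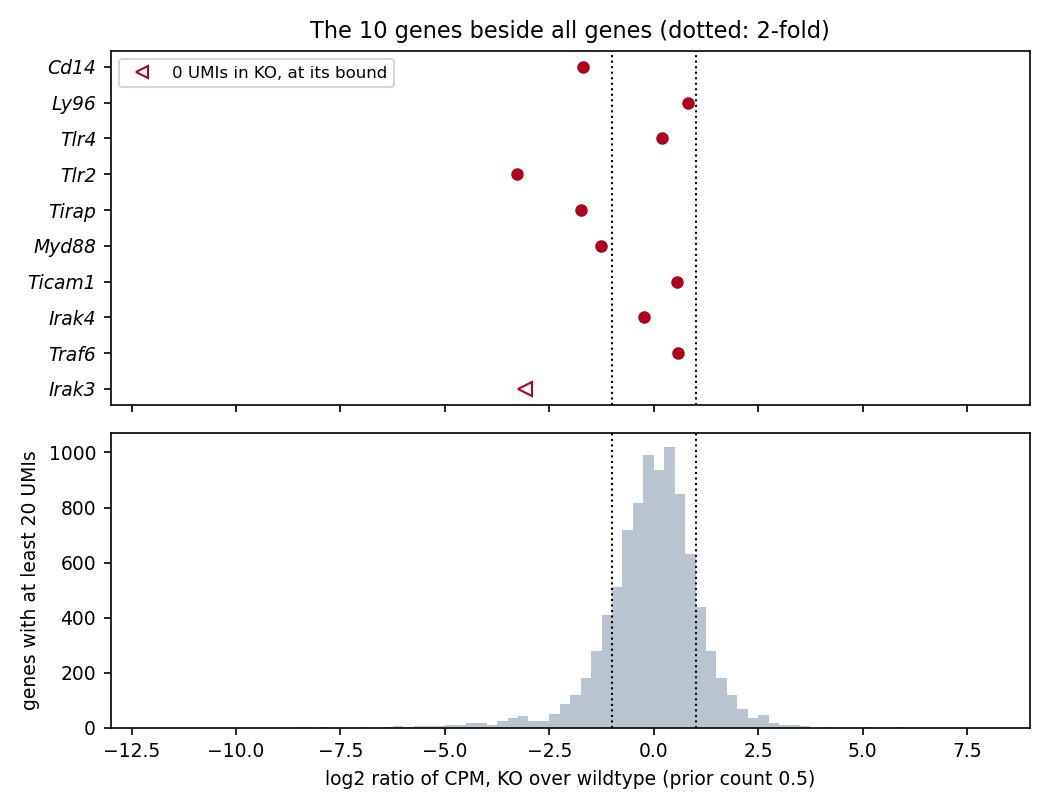
Upper panel, log2 ratio of CPM (KO over wildtype, prior count of 0.5 UMIs) of each of the 10 genes, with Irak3 drawn at the bound set by 3 counts; lower panel, histogram of the same ratio over 9085 genes, with dotted lines at 2-fold. Tlr2 and Irak3 lie in the far left tail, and 5 genes lie between the dotted lines.

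The genes lie on 9 chromosomes and were found by symbol on GRCm39 with GENCODE vM39, which need not be the annotation the authors used. Tlr4 spans chr4:66745783-66849936 and Ly96 chr1:16758275-16779961, both on the plus strand, and Tlr2 spans chr3:83743576-83749074 on the minus strand. Myd88 (chr9:119165000-119170486, minus strand) and Tirap (chr9:35095542-35111654, minus strand) share a chromosome. Ticam1 spans chr17:56576319-56583786 and Irak3 chr10:119975568-120038035 on the minus strand, and Irak4 spans chr15:94441161-94479696 and Traf6 chr2:101508519-101533545 on the plus strand. Cd14 lies on chromosome 18. Irak4 was the only one of these genes whose 3′ end was covered by another gene; Myd88 overlaps Acaa1a and Irak3 overlaps Tmbim4 at their 5′ parts on opposite strands.

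The share of cells with a UMI followed the levels for the genes with most UMIs. Since a deeper cell has more chances to show a transcript, each cell was thinned to 500 UMIs, which kept all 320 and all 1427 cells. At that depth a Cd14 UMI was seen in 24 KO cells (7.5%, 4.86 to 10.95) and 318 wildtype cells (22.3%, 20.1 to 24.5). A Tlr2 UMI was seen in 7 KO cells (2.19%, 0.884 to 4.45) and 196 wildtype cells (13.7%, 12 to 15.6). These intervals did not overlap, and without thinning the shares were 15.9% and 40.3% for Cd14 and 3.44% and 29.3% for Tlr2.

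The other 8 genes were seen in few cells of either library. Tlr4 was seen in 1.88% of KO and 2.87% of wildtype cells at 500 UMIs and, unthinned, in 22 cells (6.88%) and 118 cells (8.27%). Myd88 was seen in 0.938% and 4.27%, Tirap in 0.625% and 2.17% and Irak3 in 0% and 3.01%. Ly96 was seen in 2.5% and 1.05%, Ticam1 in 0.938% and 0.280%, Irak4 in 2.5% and 3.64% and Traf6 in 0.938% and 1.26%. These shares rest on 1 random thinning. With another seed the difference between KO and wildtype in percentage points went from -3.34 to -1.67 for Myd88, from -0.998 to -0.061 for Tlr4 and from -0.32 to 0.96 for Traf6. A lower share in KO was found for 8 of the 10 genes at this depth. At 1000 UMIs it was found for 5 of 10, and the Tlr4, Irak4 and Traf6 shares were higher in KO. No such count over all genes is given, so these counts are not read as particular to the 10 genes.

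Free RNA can place a UMI in a cell that does not express the gene. No cell type that should lack these genes was present in numbers, so the yardstick was the RNA of barcodes with 100 UMIs or fewer, of which 9236 in KO held 198723 UMIs and 4270 in wildtype held 315748 UMIs. In wildtype the cells exceeded this ambient level for Cd14, 2.80-fold (2.17 to 3.67), for Tlr4, 2.06-fold (1.09 to 4.41), and for Tlr2, 1.77-fold (1.35 to 2.37). For the remaining 7 genes in wildtype the interval of cells over ambient held 1, so their shares could not be told from background there either. Ly96 was at 2.26-fold (0.837 to 8.59) on 4 ambient UMIs, and Myd88, Tirap and Irak3 were at 0.946-fold, 0.754-fold and 1.17-fold.

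In KO no gene had an interval of cells over ambient that lay above 1. The ratio of cells to ambient was 1.15 (0.734 to 1.83) for Cd14, 1.56 (0.474 to 6.65) for Tlr2 and 0.730 (0.397 to 1.37) for Tlr4. Ly96 was at 3.30 (0.972 to 17.4) on 3 ambient UMIs. Its share of KO cells at 500 UMIs, 2.5% (1.09 to 4.87), lay above the 0.752% that ambient RNA would give. A random draw of 500 UMIs from ambient RNA would show a Cd14 UMI in 7.27% of KO cells, beside the 7.5% measured, and in 9.5% of wildtype cells, beside 22.3%. Within counting error the KO shares of Cd14 and Tlr4 are thus at or below background, and whether single KO cells express the sensing genes was not detectable at this depth. Barcodes of 100 UMIs or fewer may also hold RNA of damaged microglia, which was not tested.

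**Figure D3:**
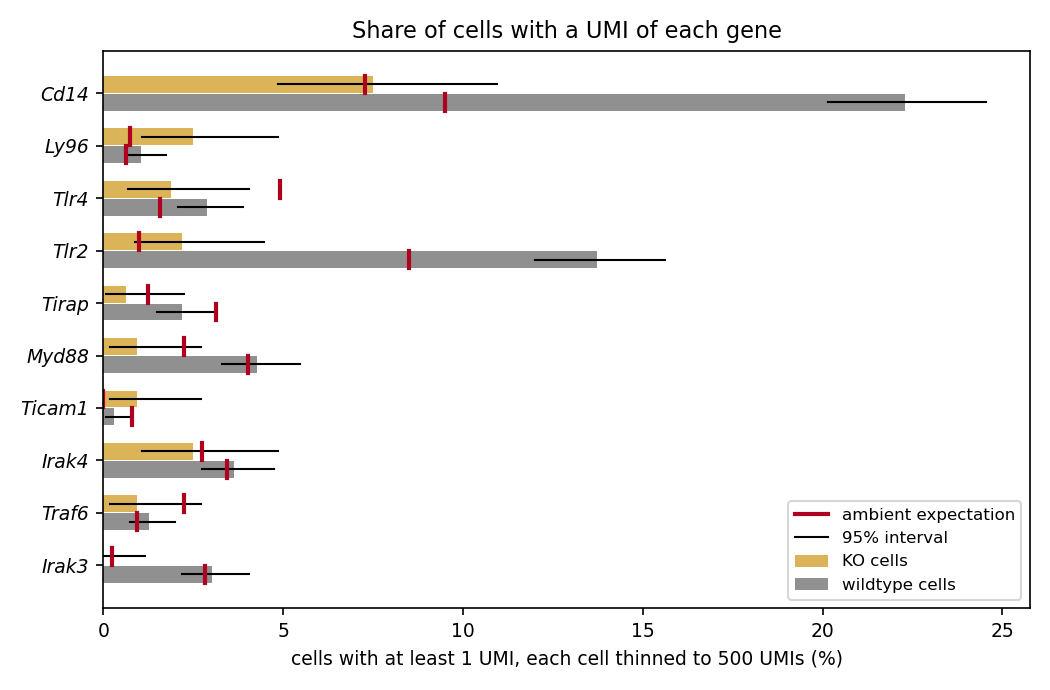
Percent of cells with at least 1 UMI of each gene after thinning every cell to 500 UMIs; bars are the libraries, black lines exact 95% binomial intervals and red ticks the percent that ambient RNA of the same library would give. In wildtype the Cd14 and Tlr2 bars pass their ticks, while in KO the Cd14 bar ends at its tick and Tlr4 falls short of it.

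The highest counts of Cd14 and Tlr2 in single cells, without thinning, were in wildtype, which also had more cells and the deepest cell (27757 UMIs, against 4292 in KO). One wildtype cell held 23 Cd14 UMIs and 37 cells held 5 or more, whereas the highest KO cell held 5 and was the 1 cell to reach that number. For Tlr2 the highest cell held 10 UMIs in wildtype and 2 in KO. For each of the other 8 genes, no cell of either library held more than 4 UMIs.

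Few cells showed several sensing genes at once. At 500 UMIs, 61 of 320 KO cells (19.1%, 14.9 to 23.8) and 629 of 1427 wildtype cells (44.1%, 41.5 to 46.7) showed at least 1 of the 10. At least 2 were seen in 3 KO cells (0.938%, 0.194 to 2.72) and 130 wildtype cells (9.11%, 7.67 to 10.7). Cd14 and Tlr2 were seen together in 0 KO cells, which at the floor allows up to 0.9375%, and in 52 wildtype cells (3.64%, 2.73 to 4.75). Tlr4, Cd14 and Ly96, the complete receptor, were seen together in 0 cells of both libraries, so its presence in single cells could not be read from these data.

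Among cells of like depth, the shortfall of Cd14 and Tlr2 was present in each of 3 classes. For Cd14 the ratio was 0.466 (0.247 to 0.814) in cells of 500 to 749 UMIs, 0.415 (0.269 to 0.617) in cells of 750 to 1249 UMIs and 0.212 (0.136 to 0.316) in cells of 1250 UMIs or more. For Tlr2 it was 0.0591 (0.00147 to 0.341), 0.293 (0.137 to 0.554) and 0.0148 (0.000373 to 0.0827), on 1, 10 and 1 UMIs in KO. Irak3 was at 0 in KO in each class, against 20, 39 and 74 UMIs in wildtype.

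Tlr4 was uneven over the classes. KO cells of 500 to 749 UMIs held 0 Tlr4 UMIs against 14 in wildtype, with an upper limit of the ratio of 1.18, cells of 750 to 1249 UMIs held 7 against 35, and cells of 1250 UMIs or more held 21 against 81, a ratio of 1.58 (0.926 to 2.57). The interval held 1 in each class. Ly96 was uneven as well, with 6 against 4 UMIs in the shallowest class, a ratio of 5.85 (1.39 to 28.2), 1 against 9 in the middle class, a ratio of 0.478 (0.0109 to 3.45), and 12 against 44 in the deepest, a ratio of 1.66 (0.797 to 3.19).

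**Figure D4:**
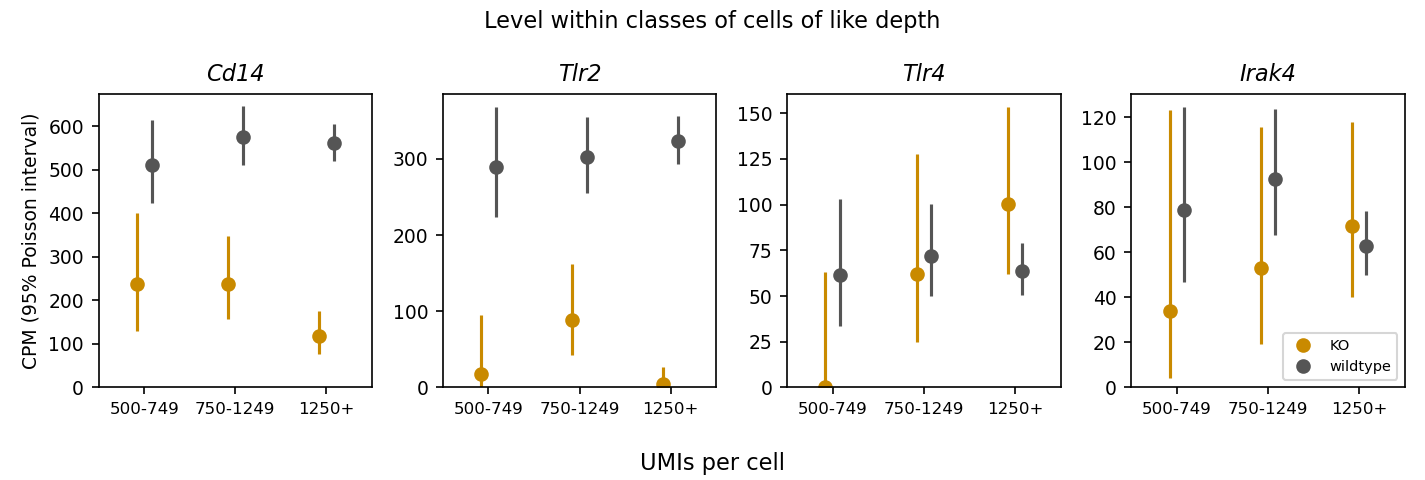
CPM of Cd14, Tlr2, Tlr4 and Irak4 in cells of 500 to 749, 750 to 1249 and 1250 or more UMIs; points are the libraries (KO and wildtype) and lines exact 95% Poisson intervals, on linear axes that start at 0. Cd14 and Tlr2 are lower in KO in each class, while the Tlr4 and Irak4 intervals of the libraries overlap.

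The libraries also differed in the mice that gave the cells. By Xist and Y-linked transcripts, 200 KO cells showed Xist alone and 12 showed Y-linked transcripts alone, against 565 and 195 in wildtype. The KO library thus held few male-marked cells for a pool stated to be of 1 female and 1 male mouse. Within the cells with Xist alone the ratio was 0.312 (0.224 to 0.426) for Cd14, 0.0645 (0.0235 to 0.142) for Tlr2, 0.188 (0.0498 to 0.505) for Myd88 and 0.0863 (0.00213 to 0.513) for Tirap, and Irak3 had 0 UMIs against 67. Tlr4 was at 1.12 (0.614 to 1.95) and Irak4 at 0.838 (0.460 to 1.45) in the same cells. Ly96 was at 1.35 (0.574 to 2.95), Ticam1 at 2.22 (0.555 to 8.12) and Traf6 at 2.22 (0.882 to 5.37), all with intervals that held 1. The shortfall of the 5 genes was thus of like size or larger in these cells, which stand for the female mice. In the 12 KO cells with Y-linked transcripts alone no member had more than 3 UMIs. Cd14 had 1 UMI there against 140 in wildtype, a ratio of 0.152 (0.00382 to 0.861), and the ratio intervals of the other 9 genes held 1.

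RNA of other cell types was unequal between the libraries. The neutrophil list, which includes S100a8 and S100a9, was without any UMI in KO and had 136 UMIs in wildtype (68.4 CPM), where 4 of its 7 measured genes were seen and Camp, Ngp and Ltf were at 0. The 5 wildtype cells with 3 or more neutrophil UMIs held 8 of the 1113 Cd14 UMIs, 3 of the 625 Tlr2 UMIs and 2 of the 133 Irak3 UMIs. Monocyte markers summed to 26.2 CPM in KO and 15.6 CPM in wildtype, and endothelial markers to 83.9 and 16.1 CPM. Border macrophage markers summed to 62.9 and 35.7 CPM, in KO from Mrc1 alone, whereas 5 of 5 genes were seen in wildtype. Astrocyte markers summed to 370 and 173 CPM, with Slc1a3 giving 102 of the 141 KO UMIs and Aqp4 at 0 in both libraries. Choroid plexus markers summed to 1883 and 11.1 CPM, with Ttr giving 710 of the 718 KO UMIs. Only 2 KO cells held 3 or more choroid plexus UMIs. Removal took out the 27 KO and 43 wildtype cells with 3 or more UMIs summed over all lists of other cell types. Without these cells the log2 ratio was -1.61 for Cd14, -3.17 for Tlr2, -1.05 for Myd88 and -1.83 for Tirap. There 5 members were still over 2-fold lower.

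The wider LPS pathway gave counts near those over all genes. Of 69 further genes in 8 lists (accessory receptors, other Toll-like receptors, chaperones, adaptors, kinases and ubiquitin enzymes, transcription factors, inhibitors and cytosolic sensors), 57 had at least 20 UMIs, of which 12 (21.1%) were over 2-fold lower in KO, where 15.3% of all 9085 genes were, 7 (12.3%) were over 2-fold higher, where 13.5% were, and 38 lay between. Their median log2 ratio was -0.30.

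Among the accessory genes, Aoah, the enzyme that deacylates and inactivates LPS, had 0 UMIs in KO and 188 in wildtype and was at least 12-fold lower in KO. Cd180, an LPS receptor homologue, was higher, with 74 and 191 UMIs and a ratio of 2.02 (1.52 to 2.66), and the other 4 measured genes of that list lay within 2-fold. Of the 5 other Toll-like receptors with at least 20 UMIs, Tlr1, the partner of TLR2, was lowest at 0.348 (0.0918 to 0.938), and Tlr12 highest at 2.37 (1.00 to 5.22) on 10 and 22 UMIs. The 4 chaperones that fold or move Toll-like receptors lay within 2-fold, from Hsp90b1 at 0.632 (0.596 to 0.669) to Unc93b1 at 1.32 (1.14 to 1.52).

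Among the 17 measured kinases and ubiquitin enzymes, 3 were over 2-fold lower and 2 over 2-fold higher, beside 15.3% and 13.5% of all genes, and 12 lay within 2-fold. By the log2 ratio with its prior count, Map3k8, the kinase TPL2, was lowest at -2.10, with a ratio of 0.223 (0.110 to 0.406). Ikbke, named after its values were seen, had a log2 ratio of -2.01. Without the prior count its ratio was the lower, 0.214 (0.0432 to 0.652) on 3 and 73 UMIs. Peli2, an E3 ligase of the Pellino family, was highest at 3.0 (1.71 to 5.13). Both further adaptors measured lay within 2-fold, Ticam2 at 0.715 (0.329 to 1.39) and Pik3ap1 at 0.596 (0.299 to 1.09). Of the 7 transcription factors, 2 were over 2-fold lower, beside 15.3% of all genes. The lowest was Nfkb2, the p100 precursor, with 2 and 60 UMIs and a ratio of 0.174 (0.0206 to 0.656), and the highest was Irf5 at 1.27 (0.899 to 1.76).

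The inhibitors lay in both directions, with 4 of 11 measured over 2-fold lower and 3 over 2-fold higher, beside 15.3% and 13.5% of all genes. Socs3, a feedback inhibitor of cytokine signalling, was lowest, with 6 UMIs in KO and 272 in wildtype and a ratio of 0.115 (0.0419 to 0.254). Tollip, an inhibitor of IRAK kinases, was highest at 3.18 (1.51 to 6.44) on 14 and 23 UMIs. Among the 5 cytosolic LPS sensing genes, Gbp2, a guanylate-binding protein, was lowest at 0.126 (0.0257 to 0.377), and Casp4, the caspase that binds LPS, highest at 0.693 (0.418 to 1.10).

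The transcripts that the receptor is known to induce were mostly lower in KO. Of 10 response genes with at least 20 UMIs, 9 were over 2-fold lower in KO and 0 over 2-fold higher, beside 15.3% and 13.5% of all genes, with a median log2 ratio of -4.86, or -2.62 with the 5 genes that had 0 UMIs in KO set at their bounds. Saa3, an acute-phase protein, had 0 UMIs in KO and 8367 in wildtype (4207 CPM), at least 535-fold lower. Il1a, an interleukin, had the highest ratio of these 10 genes, 0.647 (0.366 to 1.07), on 17 and 137 UMIs. Il6, named after its values were seen, stayed under the minimum, with 9 UMIs in KO and 8 in wildtype and a ratio of 5.87 (2.01 to 17.5).

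**Figure D5:**
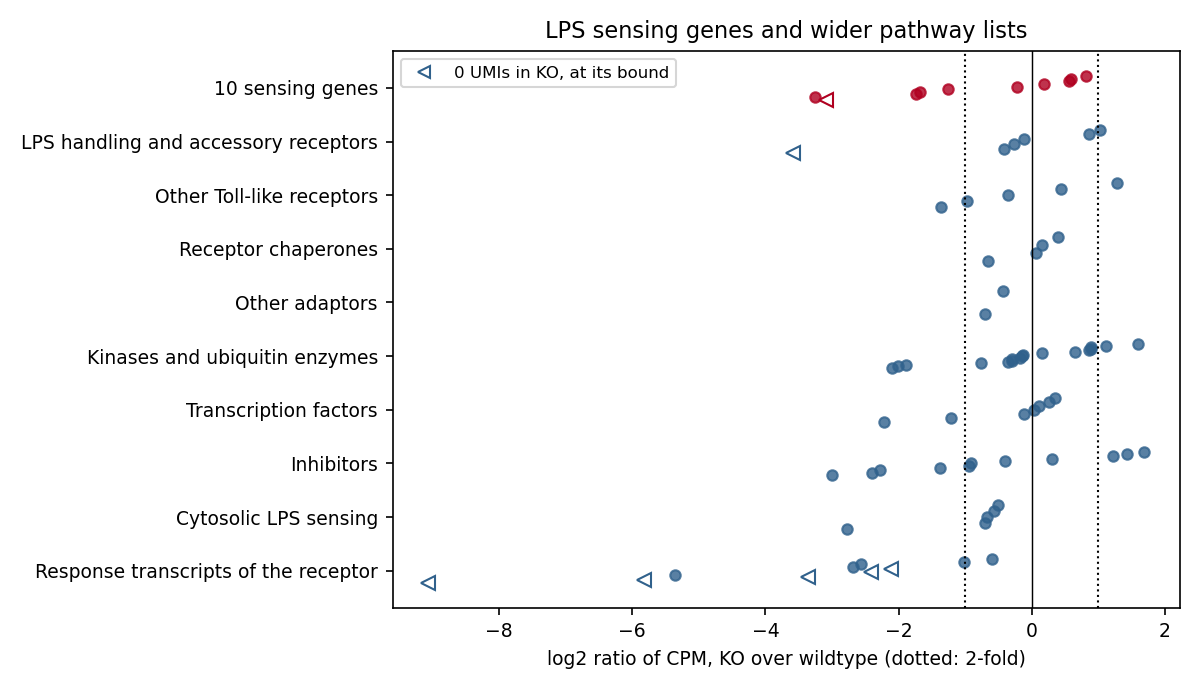
Log2 ratio of CPM, KO over wildtype, of the 10 sensing genes (red) and of the genes of 9 wider lists with at least 20 UMIs (blue), 1 point per gene; open triangles have 0 UMIs in KO and sit at the bound set by 3 counts, and dotted lines mark 2-fold. The response transcripts lie furthest to the left, whereas 38 of the 57 genes of the other 8 lists lie within 2-fold.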

How the data were processed

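The deposited files hold, for each library, a matrix of raw UMI counts per gene and cell barcode, 9999 barcodes each, which the authors made from Drop-seq reads. The submitters' processing notes name bcl2fastq 2.0, STAR and the builds mm9 and mm10, with no role for each. The counting program, annotation and strand setting are not given in the sources used here. Cells were barcodes with at least 500 UMIs and 100 genes, and held 55.7% (KO) and 64.9% (wildtype) of all UMIs. Genes marked NA in a library were read as 0; 13921 genes had values in KO and 16501 in wildtype, the 10 members in both. Doublets were left in.

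Counts were summed over cells and divided by the total (CPM). Intervals were exact: Poisson for levels, conditional binomial for ratios and Clopper-Pearson for shares, at 95%. Log2 ratios used a prior count of 0.5. Genes that reached 20 UMIs in the libraries together were called at 2-fold. Ratios and their intervals were tested on simulated data. The members and lists were chosen with earlier results of these data known. Named were all members, Park7 and the highest and lowest measured gene of each list by log2 ratio. The floor was 3 counts. The depth classes were chosen after seeing the data. Alternatives covered the cell filter, scaling, ambient RNA, doublets, other cell types, sex, prior count, thresholds and thinning. Tools were Python 3.11.15 with scipy 1.17.1, numpy 2.4.6, matplotlib 3.10.9 and pandas 2.3.3.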

Additional observations from a re-analysis of the deposited data

Results flagged for a closer look

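Traf6 stood out in the barcodes that did not reach the cell limits, where it held 16 UMIs in KO (52.7 CPM, 30.1 to 85.6) and 20 UMIs in wildtype (18.6 CPM, 11.4 to 28.7), a ratio of 2.83 (1.37 to 5.76), while in cells its ratio interval held 1.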

How the results depend on the processing

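With 1 library for each genotype no value has a replicate, and the counting intervals hold no variation between mice or between preparations. Of 150 values of the 10 genes under 15 alternatives, 135 stayed within their counting error, 15 moved and 0 of the called ones changed sign. The median log2 ratio of -0.74 lay between -1.22 and 0.18, and left its counting range only among the cells with Y-linked transcripts alone, at 0.18. There 3 genes were over 2-fold lower and 3 over 2-fold higher, on 12 KO cells with 0 to 3 UMIs per gene, the share over all genes in those cells was not computed, and these counts are not read as calls. The number over 2-fold lower was otherwise 4 to 6, with Myd88 no longer among them over all barcodes (log2 ratio -0.81). No share over all genes is given for these alternatives. The counts in the depth classes include genes with 0 UMIs in KO whose ratio intervals held 1 (Tlr4 at 0 against 14 UMIs, Ticam1 at 0 against 6), which are no calls.

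The number over 2-fold higher, 0 in the report, was 1 without a UMI minimum per cell, 1 over all barcodes and 1 as the mean of single-cell CPM. It was 1 at a call of 1.5-fold, 2 in cells with Xist alone (Ticam1 and Traf6), 3 in cells of 500 to 749 UMIs and 1 in cells of 1250 UMIs or more. No share over all genes is given for these settings, and the counts are not read as calls. In cells of 500 to 749 UMIs, Ticam1 had 1 UMI in KO against 2 in wildtype and Traf6 had 2 against 3. The ratio intervals of both held 1 there. For the number of members with a lower share of cells no count over all genes is given. That number, 8 of 10, was 7 unthinned, 7 with another seed and 5 at 1000 UMIs, with 148 and 770 cells. The cause was not tested. Depth limits Irak3, Tirap, Ticam1, Tlr2, Myd88, Traf6 and Ly96, each with 19 or fewer UMIs in KO. Leaving out barcodes shared between the libraries gave no value, since 0 were shared as cells. No paired analysis was possible because each genotype had 1 library.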
